A study of Homo sapiens with 4 samples.

Results

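Matricellular proteins are secreted into the extracellular matrix, where they regulate how cells attach, migrate and respond to growth factors more than they carry load. The genes described here were POSTN, TGFBI, THBS1, THBS2, COMP, CTGF, CYR61, NOV, SPARC and TNC, a list set by name, with no threshold on measured values. It was chosen with earlier results of these data known, so its counts beside those of all genes are descriptive. All 10 were present in the deposited table of 23577 usable genes, and all 10 were among the 13713 genes that reached an FPKM of 1 in any line. FPKM counts fragments per kilobase of a transcript, adjusted for the size of the library. TGFBI, the transforming growth factor beta-induced protein, is grouped with them because it shares the fasciclin domain of periostin, the product of POSTN.

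The genes were compared across SKUT1, SKN, SKLMS1 and RKN, 4 established human lines of leiomyosarcoma, a malignant tumour of smooth muscle lineage. Each line was untreated, grew in medium with 10% serum and gave 1 poly(A) RNA-seq library. No line served as a control, and 1 library per line allowed no test, so differences below are sizes without a replicate check and the spread around each level is not known. A culture dish holds none of the stroma that surrounds a tumour, and in bulk RNA a change in the share of cells expressing a gene cannot be told apart from a change in RNA per cell.

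The family is best known from wounds, fibrosis and tumour stroma, where fibroblasts and smooth muscle cells secrete it in response to TGF-beta and to mechanical load. CTGF and CYR61 are standard readouts of YAP and TAZ, coactivators that bind DNA through TEAD factors when cells spread or are stretched. Most of the proteins signal through integrins, and several bind collagen, fibronectin or growth factors directly.

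Read totals estimated from the smallest FPKM steps were 24100000 in SKUT1, 25400000 in SKN, 30300000 in SKLMS1 and 33900000 in RKN. The 10 smooth muscle markers summed to 6322 FPKM in SKUT1, 97.9 in SKN, 845 in SKLMS1 and 205 in RKN. In SKUT1 7 of 10 were at least 4-fold above the mean of the other lines (7.18% of all genes), as most members were. The sum of the smooth muscle markers was lowest in SKN and that of the members in RKN. For both sums SKLMS1 came next after SKUT1. At least 4-fold lower were 4 markers in SKN (3.08%) and 3 in RKN (5.79%), with 0 higher in either. In SKLMS1 0 were lower (2.41%) and 2 higher (3.43%). ACTA2, smooth muscle actin, was 1085 in SKUT1, 1.37 in SKN, 127 in SKLMS1 and 84.7 in RKN. TAGLN, which encodes transgelin, stood at 3816 FPKM in SKUT1, 5.82 in SKN, 531 in SKLMS1 and 45.5 in RKN, and MYH11, the smooth muscle myosin heavy chain, was at most 1.15 in any line, as was DES, the desmin gene. Endothelial markers summed to at most 7.58 FPKM in any line, and PTPRC, the pan-leukocyte gene, was at most 0.213. The 6 leukocyte markers summed to 77.3 FPKM in SKUT1, 17.9 in SKN, 23.0 in SKLMS1 and 5.71 in RKN, nearly all of it from CD68, a lysosomal gene that macrophages express strongly and that was 75.3 in SKUT1, 17.5 in SKN, 21.9 in SKLMS1 and 4.76 in RKN. The 12 fibroblast markers summed to 11262 FPKM in SKUT1, 61.1 in SKN, 1097 in SKLMS1 and 239 in RKN. PDPN alone gave 60.0 of the sum in SKN, and COL1A1 alone 939 of that in SKLMS1. In SKUT1 10 of 12 were at least 4-fold above the mean of the other lines (7.18% of all genes). COL1A1 (listed at 0) and PDPN were as far below there (2.9%). The fibroblast sum too was lowest in SKN, where 11 were as far lower (3.08%) and 1 higher (3.22%). In SKLMS1 8 were lower (2.41%) and 2 higher (3.43%). In RKN 6 were lower (5.79%) and 2 higher (2.88%). PI16 was listed at 0 in SKN and SKLMS1, LUM in SKN, PDPN in SKLMS1 and MFAP5 in RKN. The part of these marker sets in the results was not tested.

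As a group the 10 genes were abundant in SKUT1 and scarce in RKN. Their FPKM values summed to 20343 in SKUT1, 1378 in SKN, 2592 in SKLMS1 and 251 in RKN. These sums were 3.28% of all FPKM in SKUT1, 0.256% in SKN, 0.525% in SKLMS1 and 0.0561% in RKN. In SKUT1 6 of the 10 ranked among the 100 most abundant genes, against 1 in SKN, 2 in SKLMS1 and 0 in RKN. TGFBI was the 4th gene of all in SKUT1 by FPKM and SPARC the 6th. The median member stood at 1755 FPKM in SKUT1, 38.2 in SKN, 58.9 in SKLMS1 and 2.85 in RKN, while the median of all 13713 genes lay between 8.13 and 9.30 in the lines.

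**Figure D1:**
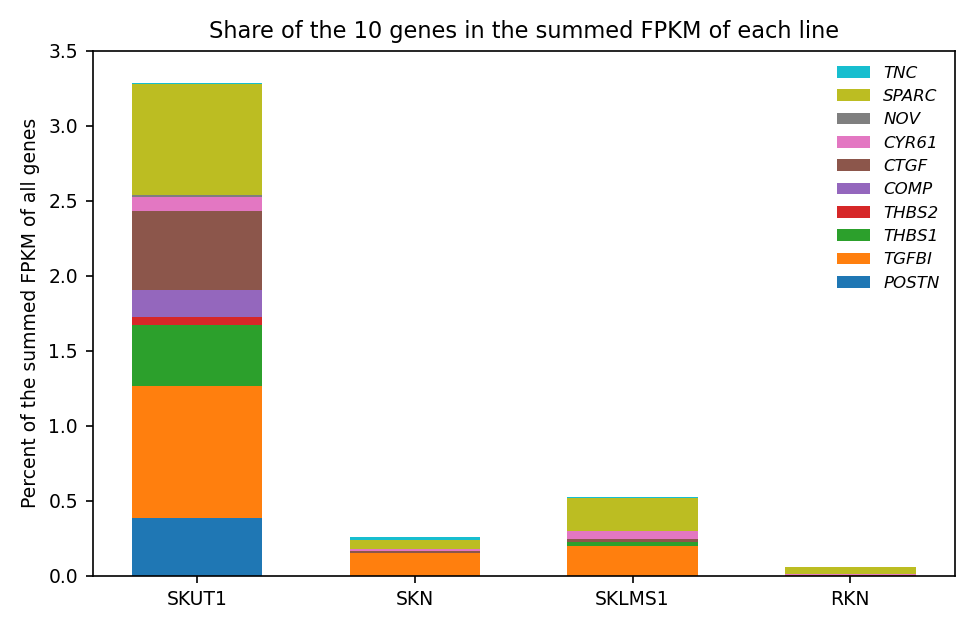
Stacked bars show the percent of the summed FPKM of all genes that each of the 10 genes took in each line. SKUT1 reached 3.28%, with SPARC, TGFBI, CTGF, THBS1 and POSTN as the widest parts, and RKN reached 0.0561%.

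Of the 10 genes, 9 had their highest level in SKUT1, where 30.8% of all 13713 genes did, and TNC had its highest level in SKN, where 21.1% did. No member was highest in SKLMS1 (19.7%) or RKN (28.4%), and none was lowest in SKUT1 (30%). RKN was lowest for 6 (26.7%), SKN for POSTN and NOV (22.2%) and SKLMS1 for THBS2 and COMP (21.1%). The highest and lowest lines lay at least 4-fold apart on the log2(FPKM + 1) scale for all 10, and for 26.7% of all genes. With SKUT1 left out, that count was 6 of 10, against 16.1% of all genes. POSTN, THBS2 and COMP reached 1 FPKM in at most 2 lines, and a gene kept through its high line has to differ, so these counts describe the members and support nothing further.

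**Figure D2:**
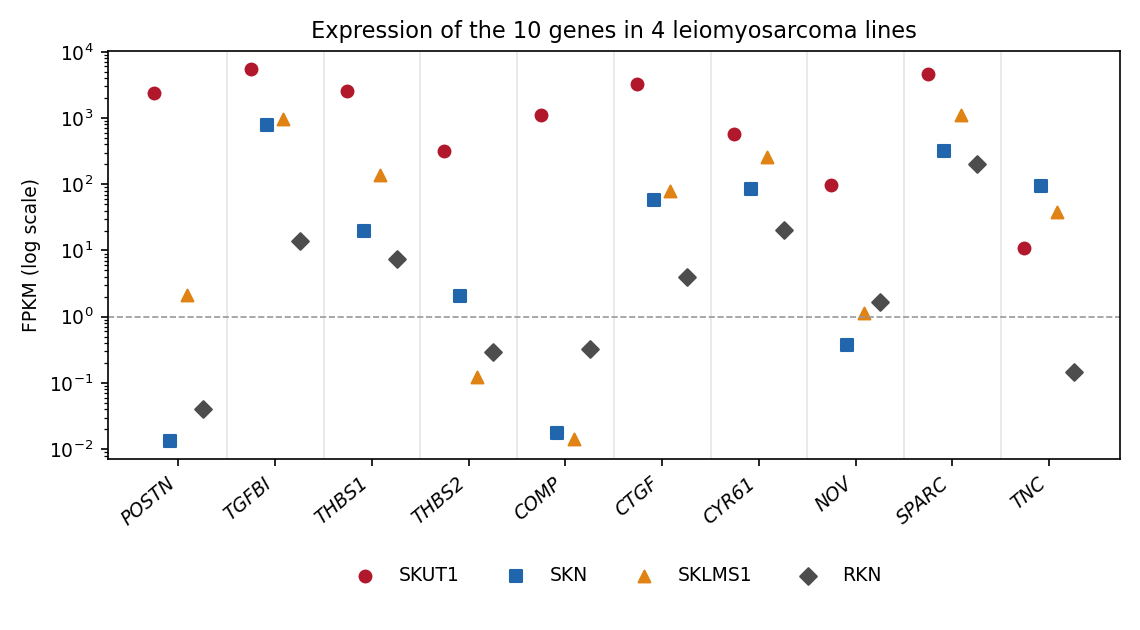
Points give the FPKM of each gene in each line on a log axis, and the dashed line marks an FPKM of 1. SKUT1 stands above the other lines for every gene except TNC, which is 95.5 in SKN and 10.9 in SKUT1.

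Set against the mean of the other 3 lines, 9 of 10 members exceeded the 4-fold limit upwards in SKUT1, where 7.18% of all genes did, and 0 were as far lower (2.9%). TNC was the exception, at -0.45 on the log2(FPKM + 1) scale. The median difference of the members in SKUT1 was 6.04, and that of all genes was -0.03. In RKN 9 of 10 were at least 4-fold lower (5.79% of all genes) and 0 higher (2.88%), with a median of -3.84. NOV was the member that stayed within that limit in RKN, at -1.31. Because SKUT1 entered the mean for RKN, that count was 5 with SKUT1 left out (TNC, THBS1, CTGF, CYR61 and TGFBI), against 5.10% of all genes, and the median was -2.10.

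By summed FPKM and by median difference, SKN and SKLMS1 stood between SKUT1 and RKN, though not for every member. In SKN 4 of 10 members were at least 4-fold lower than the mean of the others (3.08% of all genes) and 1, TNC, was higher (3.22%). In SKLMS1 3 were lower (2.41%) and 0 higher (3.43%). Without SKUT1 the members lower were 0 in SKN (2.81% of all genes) and 0 in SKLMS1 (2.12%), and those higher were 2 in SKN (3.84%) and 5 in SKLMS1 (4.43%). Taken pair by pair, SKUT1 was at least 4-fold above RKN for all 10 (10.2% of all genes), above SKN for 9 (7.69%) and below SKN for 1, TNC (4.4%), and above SKLMS1 for 8 (7.28%). SKLMS1 exceeded RKN that far for 6 (6.33%) and SKN exceeded RKN for 4 (5.78%). SKN and SKLMS1 were the closest pair for these genes, with 0 members at least 4-fold higher in SKN (3.6%) and 1, THBS1, lower (4.3%).

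**Figure D3:**
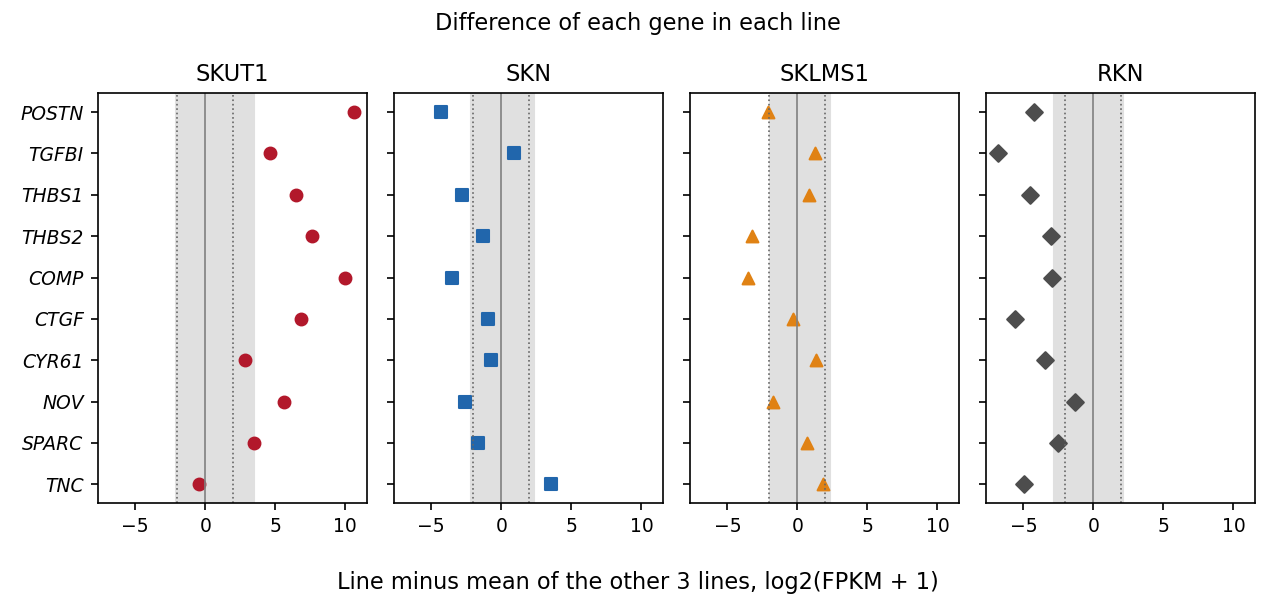
Each panel plots, for the named line, its difference from the mean of the other 3 lines on the log2(FPKM + 1) scale, gene by gene. The grey band spans the middle 95% of all 13713 genes and the dotted lines mark 4-fold. In SKUT1 7 genes lie beyond the upper edge of the band, and in RKN 8 lie beyond the lower edge.

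Among the fasciclin domain genes, POSTN was close to an on-off difference and TGFBI was expressed in all lines. POSTN encodes periostin, an integrin ligand secreted by activated fibroblasts. It stood at 2390 FPKM in SKUT1, 0.0135 in SKN, 2.11 in SKLMS1 and 0.0406 in RKN. The SKN value was worth an estimated 1.09 reads and the RKN value 4.37, so those levels were near the limit of detection at this depth. SKUT1 exceeded SKLMS1, the next line, by 9.58 on the log2(FPKM + 1) scale. TGFBI encodes a secreted adhesion protein that binds collagen and integrins. Its FPKM was 5438 in SKUT1, 798 in SKN, 982 in SKLMS1 and 13.8 in RKN. The gap that set TGFBI apart lay below, since RKN was 57.8-fold lower in FPKM than SKN, its nearest line, while SKUT1 was 5.54-fold above SKLMS1. SKN and SKLMS1 differed by 0.30 on the log2 scale. In FPKM, which is scaled to length, TGFBI exceeded POSTN 2.28-fold in SKUT1 and 464-fold in SKLMS1.

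The thrombospondins are multimeric calcium-binding glycoproteins. THBS1, which can activate latent TGF-beta and binds the receptors CD47 and CD36, was 2534 FPKM in SKUT1, 19.6 in SKN, 137 in SKLMS1 and 7.50 in RKN. The levels stepped down without a shared floor, with SKUT1 18.5-fold above SKLMS1, SKLMS1 7.01-fold above SKN and SKN 2.61-fold above RKN. In a common gene annotation (GENCODE release 29) THBS1 overlaps FSIP1, which lies on the opposite strand. THBS2, an inhibitor of blood vessel growth, was 315 in SKUT1, 2.06 in SKN, 0.122 in SKLMS1 and 0.291 in RKN. It was the thrombospondin gene for which SKN, not SKLMS1, came next after SKUT1, by 6.69 on the log2 scale. THBS1 exceeded THBS2 in FPKM 8.04-fold in SKUT1 and 9.48-fold in SKN, but 1129-fold in SKLMS1, where THBS2 was worth an estimated 20.7 reads.

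COMP, the cartilage oligomeric matrix protein, is a thrombospondin of cartilage and tendon that binds collagen. It was 1120 in SKUT1, 0.0175 in SKN, 0.0144 in SKLMS1 and 0.330 in RKN. The SKN and SKLMS1 values were worth an estimated 1.12 and 1.10 reads, so COMP was at the limit of detection there. RKN, at an estimated 28.0 reads, was above both but still below 1 FPKM. In SKUT1 COMP exceeded THBS2, with a THBS2 to COMP ratio of 0.282 in FPKM. Of 8 listed chondrocyte markers, 5 reached an FPKM of 1 in at least 1 line, and the others, COL2A1 among them, did not. Of the 5, 3 (ACAN, HAPLN1 and COL11A1) were at least 4-fold above the mean of the other lines in SKUT1 (7.18% of all genes). SOX9 alone was as far below (2.9%). ACAN, HAPLN1 and COL11A1 reached 1 FPKM only in SKUT1, so their count describes them and supports nothing further. ACAN, the cartilage proteoglycan, was 403 in SKUT1, 0.0283 in SKN, listed at 0 in SKLMS1 and 0.0462 in RKN. COL2A1, the defining collagen of cartilage, was listed at 0 in SKUT1 and SKN, and SOX9, a transcription factor of chondrocytes, was 0.591 in SKUT1, 33.0 in SKN, 1.85 in SKLMS1 and 3.12 in RKN. THBS3, a family relative outside the list, was 22.9 in SKUT1, 3.39 in SKN, 7.65 in SKLMS1 and 6.81 in RKN.

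CTGF, CYR61 and NOV belong to the CCN family and carry the current symbols CCN2, CCN1 and CCN3. CTGF, connective tissue growth factor, was 3279 FPKM in SKUT1, 56.9 in SKN, 80.3 in SKLMS1 and 4.03 in RKN. SKUT1 stood 40.8-fold above SKLMS1, and RKN lay 14.1-fold below SKN. CYR61, an early-response adhesion protein, was 565 in SKUT1, 85.6 in SKN, 259 in SKLMS1 and 20.4 in RKN. Both genes followed the order SKUT1, SKLMS1, SKN, RKN, but CYR61 spanned 27.7-fold in FPKM and CTGF 813-fold. CTGF exceeded CYR61 in SKUT1 alone among the 4 lines, with a ratio of CTGF to CYR61 in FPKM of 5.80 there, 0.664 in SKN, 0.310 in SKLMS1 and 0.198 in RKN.

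NOV, a CCN protein often described as opposing CTGF, did not follow that order. It was 97.6 in SKUT1, 0.378 in SKN, 1.14 in SKLMS1 and 1.67 in RKN. RKN, the lowest line for CTGF and CYR61, came next after SKUT1 for NOV, although the 3 lower levels lay within 0.95 of each other on the log2(FPKM + 1) scale. The other CCN genes were low, with WISP1 at 9.38 and WISP2 at 9.92 in SKUT1 and WISP3 below 1 in every line.

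The promoters of CTGF and of other members that shared its direction are shown because TEAD factors are the DNA-binding partners of YAP and TAZ. Sequences were available for 8 of the 10 genes from RefSeq on assembly GRCh38.p14, and the deposited values were made on another build, hg19. Below are the 180 bases before the start of transcription on the gene's own strand: CTGF at chr6:131951373-131951552, minus strand, THBS2 at chr6:169253847-169254026, minus strand, THBS1 at chr15:39580899-39581078, plus strand, and POSTN at chr13:37598769-37598948, minus strand. Capitals mark the core TEAD motif GGAATG, read on both strands so that CATTCC also counts, and the TATA box TATAAA on the gene's own strand.

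CTGF: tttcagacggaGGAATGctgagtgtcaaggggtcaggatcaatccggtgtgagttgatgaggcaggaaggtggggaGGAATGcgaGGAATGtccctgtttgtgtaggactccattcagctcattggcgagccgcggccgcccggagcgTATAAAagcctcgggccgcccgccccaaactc

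THBS2: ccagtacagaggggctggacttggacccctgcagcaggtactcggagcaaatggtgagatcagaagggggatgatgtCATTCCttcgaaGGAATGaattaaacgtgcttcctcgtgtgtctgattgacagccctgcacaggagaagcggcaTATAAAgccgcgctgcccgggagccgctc

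THBS1: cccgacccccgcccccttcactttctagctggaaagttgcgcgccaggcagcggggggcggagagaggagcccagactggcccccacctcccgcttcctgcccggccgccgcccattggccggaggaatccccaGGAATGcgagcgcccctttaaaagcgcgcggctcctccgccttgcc

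POSTN: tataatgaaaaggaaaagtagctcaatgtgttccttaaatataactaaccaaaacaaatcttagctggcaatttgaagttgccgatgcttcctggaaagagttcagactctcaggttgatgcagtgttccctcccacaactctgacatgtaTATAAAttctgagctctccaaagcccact

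Over the full 250 bases before the start, CTGF held 3 core TEAD motifs, beginning 169, 104 and 95 bases before the start, all on its own strand. Of 27305 promoters searched in the same way, 26 held 3 or more, a share of 0.0952%. THBS2 held 2, beginning 103 bases before the start on the other strand and 91 on its own, as 0.963% of promoters held at least 2. THBS1, SPARC and COMP held 1 each, where 11.9% of promoters held at least 1, and POSTN, TGFBI and TNC held 0. The AP-1 motif TGANTCA, searched on both strands, was found in POSTN only, 220 bases before the start, and in 6.60% of all promoters. A TATA box lay 32 bases before the start of CTGF and 29 before those of THBS2 and POSTN, and 7.17% of promoters held at least 1. No pair of these matches overlapped. A match is a run of letters and no measurement of binding.

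**Figure D4:**
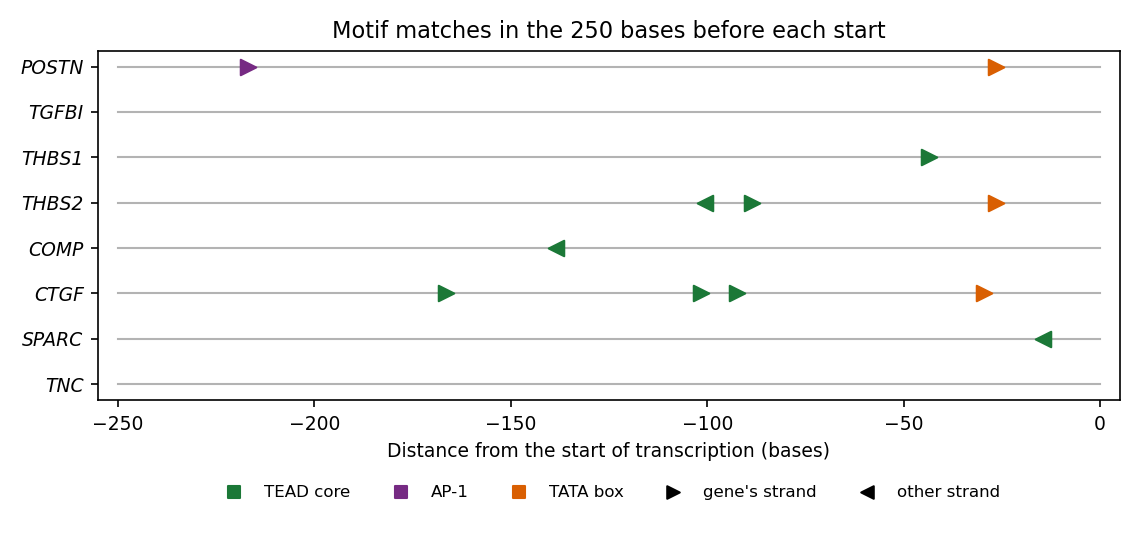
Each horizontal line is the stretch of 250 bases before the start of transcription of 1 of 8 genes, and triangles mark motif matches by distance from the start in bases, pointing with their strand. CTGF carries 3 core TEAD motifs, THBS2 carries 2 and THBS1, COMP and SPARC carry 1 each.

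All of 21 other YAP and TAZ target genes reached an FPKM of 1. In SKUT1 9 were at least 4-fold above the mean of the other lines (7.18% of all genes) and 0 as far below (2.9%). Their median there was 1.84 on the log2 scale. CTGF was at 6.84 and CYR61 at 2.85 on the same scale, and 4 of the 21 lay above CYR61 (IGFBP3, ANKRD1, NT5E and CRIM1, from 6.76 down to 3.48). In RKN 6 of 21 were at least 4-fold lower (5.79% of all genes) and 0 higher (2.88%), with a median of -1.10. CTGF was at -5.63 and CYR61 at -3.45 there. IGFBP3, which binds insulin-like growth factors, was 3096 in SKUT1, 6.96 in SKN, 1230 in SKLMS1 and 1.39 in RKN. CRIM1, a transmembrane regulator of BMP, was 301 in SKUT1, 30.6 in SKN, 59.1 in SKLMS1 and 9.48 in RKN, in the order of CTGF. NT5E, a surface nucleotidase, was 209 in SKUT1, 56.4 in SKN, 4.37 in SKLMS1 and 19.8 in RKN and did not follow it. ANKRD1, a nuclear ankyrin repeat protein of stretched muscle, was 204 in SKUT1, 0.0223 in SKN, 18.0 in SKLMS1 and 0.117 in RKN.

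**Figure D5:**
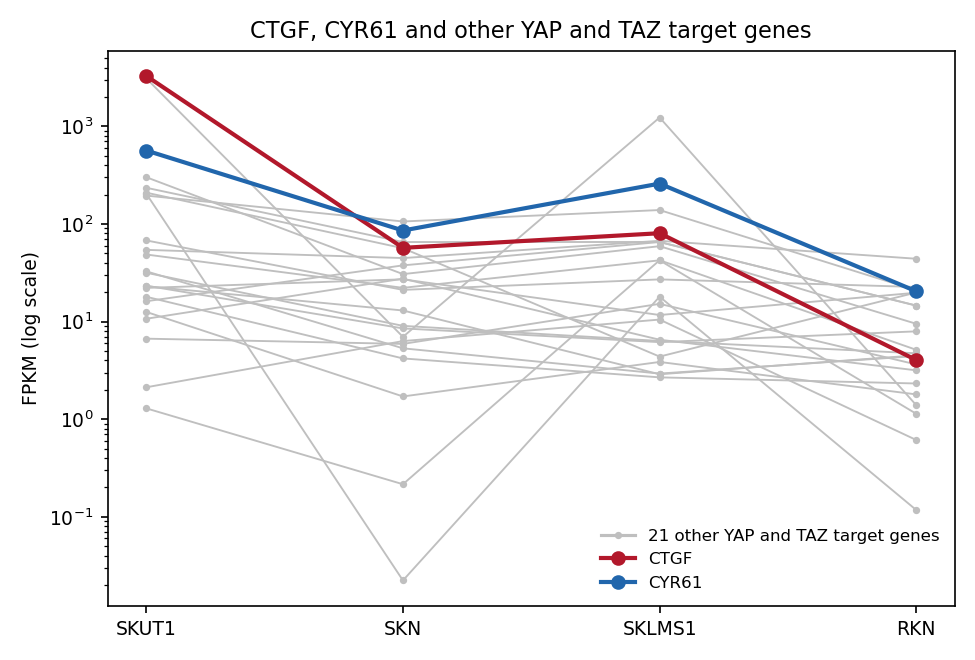
FPKM on a log axis is plotted for CTGF, CYR61 and 21 other YAP and TAZ target genes, and a line joins the values of 1 gene across the 4 cell lines. CTGF lies above CYR61 in SKUT1 and below it in SKN, SKLMS1 and RKN.

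SPARC, also called osteonectin, binds collagen and calcium and was the least variable member. It was 4594 FPKM in SKUT1, 320 in SKN, 1093 in SKLMS1 and 203 in RKN, a span of 22.7-fold. SPARC was the member with the highest level in RKN, at rank 315 of all genes there, and it was the member that stayed above 100 FPKM in all 4 lines. In RKN it exceeded TGFBI 14.7-fold in FPKM, whereas in SKUT1 the ratio of SPARC to TGFBI was 0.845. FSTL1, a relative that shares a domain with SPARC, was 2364 in SKUT1, 138 in SKN, 157 in SKLMS1 and 113 in RKN. SPOCK1, a SPARC-related proteoglycan, was 402 in SKUT1, 47.6 in SKN, 81.5 in SKLMS1 and 0.0705 in RKN. SMOC1, another SPARC relative, was highest in SKN at 16.1.

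TNC, tenascin C, is a large glycoprotein of wounds and tumour stroma that weakens adhesion to fibronectin. It was 95.5 FPKM in SKN, 37.5 in SKLMS1, 10.9 in SKUT1 and 0.148 in RKN. This order, SKN, SKLMS1, SKUT1, RKN, was found for no other member. SKN stood 2.54-fold above SKLMS1 and SKLMS1 3.45-fold above SKUT1, and the gap from SKUT1 to RKN was 3.37 on the log2(FPKM + 1) scale. RKN, worth an estimated 37.4 reads, was the lowest line for TNC as it was for TGFBI, CTGF, CYR61, THBS1 and SPARC. TNXB, TNN and TNR, the other tenascins, were at or next to 0 in every line.

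The genes with the most similar pattern were taken as the 3 with the smallest Euclidean distance of centred log2(FPKM + 1) values over the 4 lines, among 8646 genes that reached 10 FPKM. With 4 values a gene, this likeness is a description only. For CTGF they were ADAMTS1, FBN1 and SERPINE2 (distances 0.28, 0.40 and 0.50), and for CYR61 C9orf3, AHR and TMEM45A (0.36 to 0.53). For THBS1 they were MMP2, NTN4 and ABI3BP (0.31 to 0.86), and for THBS2 BST1, FBLN5 and H19 (0.94 to 0.97). POSTN was nearest to DCN, PI16 and MFAP5 (1.22 to 1.53) and COMP to PI16 and MFAP5 (0.32 and 0.44), so the genes shared by these lists, PI16 and MFAP5, were also on the fibroblast marker list. For TGFBI the nearest were SPOCK1, SRGN and PAM (0.33 to 1.02), and for SPARC PRR16, CITED2 and ATP2B4 (0.30 to 0.43). NOV was nearest to SOD3, SLC38A5 and MFAP4 (0.54 to 0.68). TNC was nearest to NRP2, ALDH1A3 and PMEPA1 (0.67 to 0.89), and PMEPA1, a TGF-beta target gene, was 8.43 in SKUT1, 150 in SKN, 67.1 in SKLMS1 and 0.672 in RKN. Between members the shortest distance was 1.17, for SPARC and CYR61, then 1.60 for POSTN and COMP and 1.87 for THBS1 and CTGF.

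Other matricellular genes were counted as the members were. Of 8 listed outside the members' families, 7 reached an FPKM of 1. Of these, 6, all but SPP1, exceeded 4-fold in SKUT1 (7.18% of all genes) and 0 were as far lower (2.9%). In RKN 7 were as far lower (5.79%), or 3 with SKUT1 left out (5.10%). MGP and FBLN5 reached 1 FPKM only in SKUT1, so the SKUT1 count describes these genes and supports nothing further. MFGE8, a phosphatidylserine-binding integrin ligand, was 1315 in SKUT1, 184 in SKN, 45.9 in SKLMS1 and 38.0 in RKN. EDIL3, its relative, was highest in SKLMS1 at 109, with 85.3 in SKUT1. Of 17 listed relatives within the members' families, 7 reached an FPKM of 1. Of these, 4 (FSTL1, SPOCK1, WISP1 and WISP2) passed 4-fold upwards in SKUT1 (7.18% of all genes). WISP1 reached 1 FPKM only in SKUT1, so the same limit holds for this count. In RKN 1, SPOCK1, passed it downwards (5.79%), or 2 or 3 with any single comparison line left out (5.10 to 6.98%).

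Receptors of the members were counted in the same way. Of 21 listed receptor genes, 19 reached an FPKM of 1. Of these, 7 passed 4-fold upwards in SKUT1 (7.18% of all genes) and 0 downwards (2.9%), with a median of 1.52. In RKN 9 were as far lower (5.79%) and 0 higher (2.88%), with a median of -1.97. ITGA8 and CD36 reached 1 FPKM only in SKUT1, so the SKUT1 count describes the receptors and supports nothing further. ITGB1, the beta chain shared by many integrins, was 1240 in SKUT1, 237 in SKN, 442 in SKLMS1 and 129 in RKN. ITGB5, a partner of the alpha V chain, was 360 in SKUT1, 10.3 in SKN, 25.9 in SKLMS1 and 12.5 in RKN. ITGA3 was highest in SKN at 271, with 28.6 in SKUT1, 95.8 in SKLMS1 and 10.1 in RKN. Of the THBS1 receptors, CD47 lay between 9.83 and 21.2 in all lines, and CD36 was 21.5 in SKUT1, listed at 0 in SKN, 0.222 in SKLMS1 and 0.00655 in RKN. With RKN left out, 5 receptors passed 4-fold upwards in SKUT1 (6.83% of all genes) and 3 downwards (3.57%). A pseudocount of 0.1 gave 11 upwards, while the share of all genes rose to 11.2%.

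Of 22 genes of the TGF-beta and SMAD pathway, 12 passed 4-fold upwards in SKUT1 (7.18% of all genes) and 1 downwards (2.9%), with a median of 2.44. In RKN 11 passed it downwards (5.79%) and 1, COL3A1, upwards (2.88%), with a median of -1.82. The gene counted lower in SKUT1 was FN1, fibronectin, which was listed at 0 in SKUT1, 2960 in SKN, 651 in SKLMS1 and 0.266 in RKN. An exact 0 in such a table can be a failed estimate, and COL1A1 was also listed at 0 in SKUT1, so neither is read as absent there. None of the 10 members was listed at 0 in any line. TGFB1, the ligand, lay between 31.5 and 73.2 in all lines. TGFBR2, its type II receptor, was 81.6 in SKUT1, 73.2 in SKN, 21.3 in SKLMS1 and 0.864 in RKN. A link between these genes and the members was not tested.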

How the data were processed

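The deposited values are FPKM per gene symbol, made by the authors. Per the submitters' processing notes the tools were STAR and Cufflinks and the build hg19. Per the labels' protocols, libraries came from the TruSeq Stranded mRNA kit as single-end reads of 75 bp. For tool versions, annotation and strand setting, the sources used here say nothing, so reads of overlapping genes on opposite strands may not have been separated. Of 23610 rows, 28 with a date number for a symbol and 5 with a spreadsheet error were left out.

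Values were compared as log2(FPKM + 1), which understates differences of low genes, and a call is a difference of 2 or more on that scale (4-fold). Each line was set against the mean of the other 3, with 1 library per line and no test. Genes needed an FPKM of 1 in at least 1 line. The members and lists were chosen with earlier results of these data known. All members are named, with up to 4 genes per list by highest FPKM, the 3 most similar genes per member, and others picked after their values were seen (MYH11, DES, LUM, PDPN, MFAP5, PTPRC, COL2A1, COL11A1, SPP1, WISP1 to WISP3, TNXB, TNN, TNR, CD47, CD36, ANKRD1, PMEPA1, TGFB1, TGFBR2, COL1A1). Some genes that this rule takes are not reported here.

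Depth is not part of the table. It was estimated from low values of single-transcript genes of GENCODE release 29 with an assumed fragment length of 200 bases, as the total giving the most values within 0.1 of a whole number of reads (63.9 to 65.2% of 274 to 316 values). Since the total was fitted to these values, the share is no check of it, and reads per gene are approximate. The code was tested on simulated data, recovering 200 of 200 genes shifted by 3.5 in each line. The simulated lines otherwise differed only by noise with a standard deviation of 0.3. Recovery was therefore nearly certain and is a check of the code, not of the calls made here. Alternatives were other pseudocounts, filters, scalings, an 8-fold threshold, the median in place of the mean, and leaving out single lines. Python 3.11.15 with pandas 2.3.3 and numpy 2.4.6 was used.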

Additional observations from a re-analysis of the deposited data

How the results depend on the processing

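Of 152 recomputed counts and medians of the members, 123 stayed within 1.5 times (counts) or 1.5-fold (medians), and 29 moved further. A reversal of sign was counted only for values of at least 2 in size. Among medians that covered SKUT1 and RKN alone, and 0 reversed. By contrast, the median of SKN turned to 0.013 without SKUT1. That of SKLMS1 turned to -0.37 without SKN and -1.75 without RKN. Of 440 recomputed differences of single members, 298 stayed, 138 moved and 4 reversed by the same rule. The 9 members higher in SKUT1 and the 9 lower in RKN were the same in number under TPM, median-of-ratios and quantile scaling. TPM moved the median of all genes by -0.27 in SKUT1 and 0.25 in RKN, and there the member medians were 5.73 and -3.66. Without SKUT1, members higher were 2 in SKN and 5 in SKLMS1, members lower were 0 in SKN, 0 in SKLMS1 and 5 in RKN, the medians were 0.013, 1.98 and -2.10 in SKN, SKLMS1 and RKN, the members with a wide range were 6, and the differences of POSTN in SKLMS1 and COMP in RKN turned to 1.60 and 0.39. With the median of the other lines in place of the mean, those differences were 1.58 and 0.39. Members lower were then 6 in RKN (5.11% of all genes), 1 in SKN (2.87%) and 0 in SKLMS1 (2.11%), and 1 was higher in SKLMS1 (3.99%). The medians were -0.72 in SKN, 1.04 in SKLMS1 and -3.01 in RKN. By construction both settings remove or damp the SKUT1 value. Without RKN, members lower were 1 in SKUT1 (TNC, with 3.57% of all genes lower), 8 in SKN (4.61%) and 5 in SKLMS1 (3.61%), with medians of -2.98 in SKN and -1.75 in SKLMS1. Without SKN, 1 member was higher in SKLMS1 (3.81% of all genes), and medians were -0.37 in SKLMS1 and -4.44 in RKN. Without SKLMS1, medians were -2.16 in SKN and -4.71 in RKN. A pseudocount of 5 gave medians of 5.13 in SKUT1 and -3.06 in RKN, and a pseudocount of 0.1 gave 1 member higher in SKLMS1 (7.37% of all genes). An 8-fold threshold left 8 higher in SKUT1 (3.54%), 6 lower in RKN (2.11%) and 2 lower in SKN (1.04%). The cause of these changes was not tested. For the other gene lists, alternatives were chosen after seeing the data. Depth limits POSTN in SKN and COMP in SKN and SKLMS1, each worth about 1 read. No paired analysis was possible because each line had 1 library.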
